A study of Homo sapiens with 8 samples.

Results

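The genes UBB, VCP, PSME1 and PSME2 encode parts of the ubiquitin and proteasome system, and RFX7 binding at them is described here in U2OS, a human osteosarcoma cell line. These 4 of 20037 protein-coding genes were chosen by their RFX7 intervals in these same data, with earlier results known, so their intervals and ranks are descriptions and carry no test. An interval, 1 row of a deposited peak list, was assigned to a gene when its midpoint lay inside the gene or within 10 kb of either end. By this rule the genes held 3 of the 304 intervals listed after Nutlin-3a and 1 of the 213 listed after DMSO, since PSME1 and PSME2 share an interval.

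RFX7, a transcription factor named for its X-box binding family, was precipitated with its chromatin, using 3 µg of antibody each time, and the recovered DNA was sequenced (ChIP-seq). U2OS cells received Nutlin-3a at 10 µM, or its solvent DMSO as the control, for 24 h. Nutlin-3a keeps MDM2 from p53 and so stabilises p53, and the labels name no genetic change in either group. The series comprised 8 samples, with 2 RFX7 precipitates and 2 inputs per treatment, but each treatment is represented by 1 merged list. No value below has a replicate error, no difference between treatments could be tested, and the read depth behind the lists is unknown. Fold enrichment (height over the caller's background) and −log10 q (significance after adjustment) are the authors' values, and they rank intervals within their own list only, with rank 1 the highest.

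Ubiquitin is a small protein that is attached to other proteins, often as a chain that marks them for breakdown. UBB encodes polyubiquitin, a string of ubiquitin units, whereas RPS27A encodes ubiquitin fused to a ribosomal protein. VCP, also called p97, is a hexameric ATPase that pulls ubiquitin-marked proteins out of complexes and membranes. The proteasome then degrades them, and PSME1 and PSME2 form the PA28 ring that caps its core and opens it for peptide production. RFX proteins bind the X-box, a DNA element with the arm sequence GTTGC, which in the promoters of MHC class II genes lies beside a CCAAT box bound by NF-Y.

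The sequences under the intervals are shown first, as far as RefSeq promoter windows of GRCh38.p14 hold them. Each is read 5′ to 3′ along the strand of the named gene, and capitals mark the X-box core (GTTGC, or GCAAC on the other strand) and the CCAAT box (CCAAT, or ATTGG on the other strand). The VCP stretch, chr9:35072626-35072875 on the minus strand, holds the 250 bases before the gene's start and lies wholly inside the Nutlin-3a interval. The EMC9 stretch, chr14:24141683-24141732 on the minus strand, is the whole interval assigned to PSME1 and PSME2, and it falls in the promoter window of EMC9. The UBB stretch, chr17:16381040-16381069 on the plus strand, is a part of that gene's Nutlin-3a interval.
VCP: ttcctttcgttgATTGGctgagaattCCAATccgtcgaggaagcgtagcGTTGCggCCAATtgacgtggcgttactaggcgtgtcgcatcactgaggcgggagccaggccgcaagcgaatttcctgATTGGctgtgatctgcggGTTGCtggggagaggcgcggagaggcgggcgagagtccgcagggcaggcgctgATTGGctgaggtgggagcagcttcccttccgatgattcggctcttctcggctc
EMC9: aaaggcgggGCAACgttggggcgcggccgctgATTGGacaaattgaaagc
UBB: ataagtgacGCAACactcGTTGCataaatt
All 3 stretches hold the X-box core, a motif that was added after the sequences were seen and that occurs in 33.6% of all promoter windows of the table. The 30 bases shown for UBB were taken from the 78 that could be read because they hold the core. The VCP stretch also has 5 CCAAT boxes and the EMC9 stretch 1, against at least 1 in 34.6% of all windows. Both shares are for windows of 300 bases, which are longer than each stretch, so they are not shares for stretches of these lengths.

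VCP carried the highest-ranked RFX7 interval after Nutlin-3a and was the only 1 of the 4 genes with an interval in both lists. The share of all 304 Nutlin-3a intervals that overlap a DMSO interval is not given here. Nothing is therefore read from the presence of a gene in 1 list or in both. The Nutlin-3a interval, chr9:35072090-35073201, was 1112 bp wide. It reached a fold enrichment of 10.6 and had the list's top −log10 q, 67.6. The next highest −log10 q in the list was 65.0. By fold enrichment the same interval ranked 8 of 304, and by width it ranked 17. Its midpoint lay 20.5 bp upstream of the start of VCP (chr9:35056064-35072625, minus strand). Of its bases, 536 were inside the gene and 576 upstream of it, so the interval spanned the start.

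The DMSO interval at VCP, chr9:35072641-35072803, was narrower and lay entirely within the Nutlin-3a interval. It was 163 bp wide. Its fold enrichment was 4.24 and its −log10 q 9.57, and it ranked 4 of 213 by −log10 q and 6 by fold enrichment. By width it ranked 185 of 213. It covered 14.7% of the Nutlin-3a interval, and the midpoints were 76.5 bp apart. VCP was thus near the top of either list by both scores, while its interval was among the widest after Nutlin-3a and among the narrower ones after DMSO. How far read depth sets the width and scores of a list was not tested. FANCG, a Fanconi anaemia gene that lies upstream of VCP on the same strand, was also within 10 kb, but its own start was 7296.5 bp from the Nutlin-3a midpoint.

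UBB had a strong interval after Nutlin-3a and none after DMSO. The interval, chr17:16380604-16381117, was 514 bp wide. Its fold enrichment was 11.2 and its −log10 q 57.6. It ranked 5 by −log10 q and 3 by fold enrichment, and a second interval, near the GTPase gene RAP2A, had the same value of each. UBB therefore stood above VCP by fold enrichment and below it by −log10 q. Its interval covered the first 339 bases of the gene (chr17:16380779-16382745, plus strand) and 175 bases before it, with the midpoint 81.5 bp downstream of the start of the gene model. The promoter table places its 2 UBB starts further in, at 16381290 and 16381341. The interval lies wholly upstream of both, with its midpoint 429.5 and 480.5 bp before them. For VCP the gene model and the promoter table give the same start. UBB was the sole protein-coding gene within 10 kb. The nearest DMSO interval was 36.2 Mb away.

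**Figure D1:**
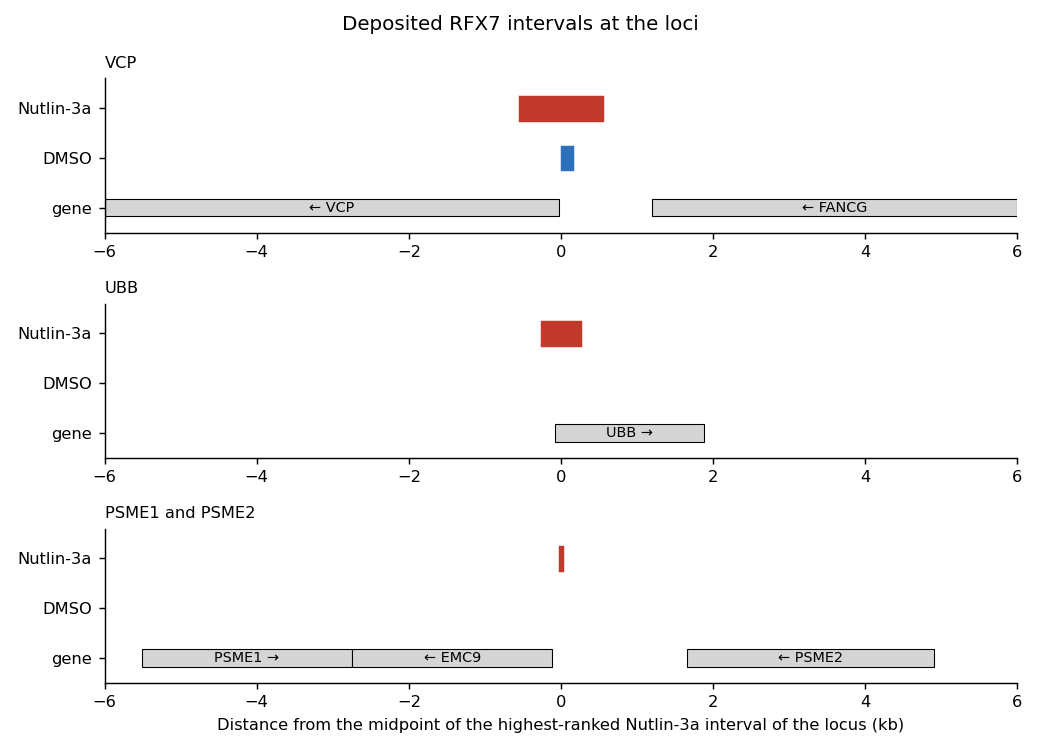
Deposited intervals (red, Nutlin-3a; blue, DMSO) above the gene models (grey, arrow in the direction of transcription where the promoter table gives it) at 3 loci; the horizontal axis is the distance in kb from the midpoint of the locus's highest-ranked Nutlin-3a interval, cut at 6 kb. The VCP and UBB intervals cover the starts of the gene models (for UBB not the 2 starts of the promoter table, which lie downstream of its interval), whereas the interval of PSME1 and PSME2 is 50 bp wide and lies between EMC9 and PSME2.

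PSME1 and PSME2 shared 1 interval after Nutlin-3a, and it lay at the start of neither gene. The interval, chr14:24141683-24141732, was 5.61-fold enriched. Its −log10 q was 5.01, which placed it 252 of 304 by −log10 q and 112 by fold enrichment. Its midpoint was 2745.5 bp beyond the 3′ end of PSME1 (chr14:24136194-24138962, plus strand) and 5513.5 bp from its start. From PSME2 (chr14:24143365-24146610, minus strand) it was 1657.5 bp beyond the 3′ end and 4902.5 bp from the start. The nearest gene was EMC9 (chr14:24138965-24141591, minus strand), which encodes a subunit of the ER membrane protein complex, and the midpoint was 116.5 bp upstream of its start. The data thus place this interval at the EMC9 promoter, and the assignment to the proteasome activators rests on the 10 kb window alone. RNF31, a ubiquitin ligase subunit of the LUBAC complex, and FITM1, a lipid droplet gene, were within the window as well, at 5167.5 and 8860.5 bp.

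At 50 bp this interval was the narrowest of the 304, against a median of 339.5 bp, and it was 1 of 4 in the Nutlin-3a list that were narrower than the narrowest DMSO interval, of 160 bp. How the merged rows of the lists were formed is not given in the sources used here, and its part in this width and −log10 q was not tested. Its −log10 q was low for its height, a comparison made after the values were seen. The 3 other intervals with the same fold enrichment had −log10 q values of 13.4 to 14.9 and widths of 310 to 370 bp. Among the 10 others within 0.2 of its fold enrichment, the lowest −log10 q was 11.1 and the smallest width 229 bp. A low −log10 q at this height was not particular to it, however: within 0.5 of its fold enrichment, 1 of 38 others was lower, at 4.21 with a width of 462 bp, and the next had 5.84. The other intervals narrower than 160 bp were 76, 70 and 61 bp wide, at fold enrichments of 6.86, 4.37 and 3.88. Their −log10 q values were 8.41, 2.02 and 1.53. The 76 and 70 bp intervals had the lowest −log10 q at their fold enrichment, and the 61 bp interval the lowest of the list. A link between width and −log10 q was not tested. The DMSO list had no interval within 10 kb of either gene, and its nearest one was 14.3 Mb away.

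**Figure D2:**
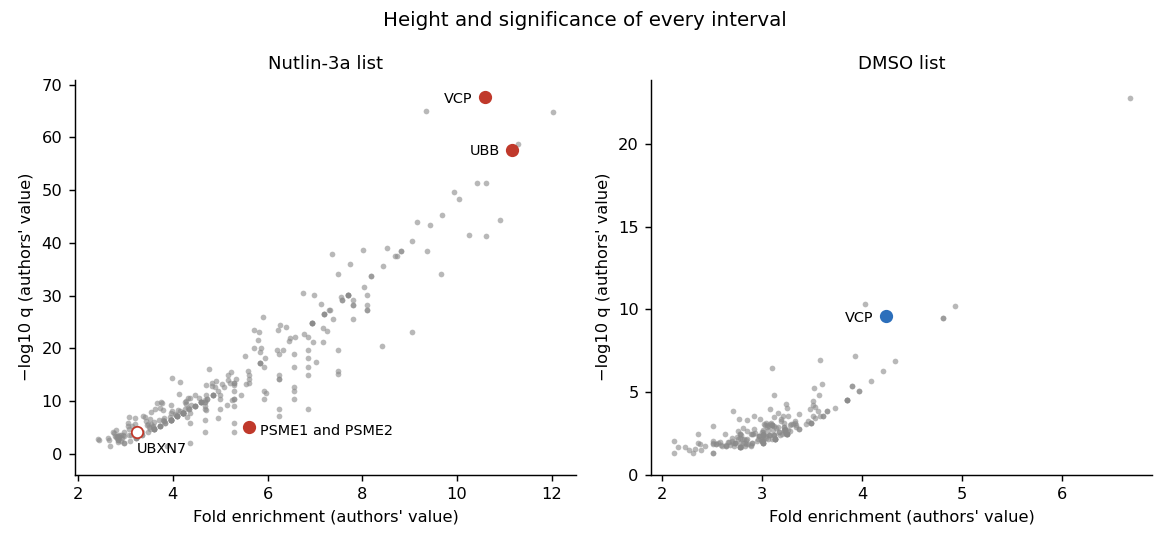
Fold enrichment (horizontal) against −log10 q (vertical) of each interval in the Nutlin-3a list (left) and the DMSO list (right), on separate scales; filled circles are intervals of the 4 genes, the open circle that of UBXN7, and grey points all others. VCP and UBB sit at the upper right of the Nutlin-3a list, and the interval of PSME1 and PSME2 lies below the other points at the same fold enrichment, 5.61.

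**Figure D3:**
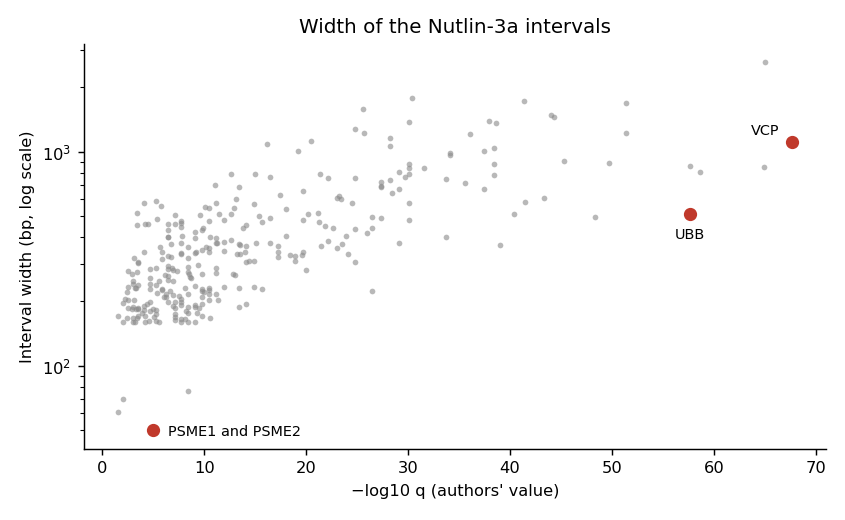
Width in bp (log scale) against −log10 q of the 304 Nutlin-3a intervals, with those of the 4 genes in red. The VCP interval, 1112 bp wide, has the highest −log10 q, and the 50 bp interval of PSME1 and PSME2 is the narrowest.

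All 4 genes had a Nutlin-3a interval by the rule that chose them, against 1.33% of all protein-coding genes (266 of 20037). For DMSO the count was 1 of 4, against 0.319% of all (64 of 20037). Nothing is read from these shares, because the intervals chose the genes. The window mattered little for UBB and VCP, since the farthest assigned interval was that of PSME1 at 2745.5 bp and the next interval beyond 10 kb of any of the 4 genes was 2.40 Mb from VCP. With a limit of 1 kb, UBB and VCP kept their Nutlin-3a intervals and PSME1 and PSME2 lost theirs.

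The intervals next in rank lay at genes of other kinds. The 2 Nutlin-3a intervals ranked directly after that of VCP had no protein-coding gene within 10 kb. The fourth, at PNRC2, a nuclear receptor coactivator gene, was thus the next one with such a gene, and it ranked directly above UBB with a −log10 q of 58.7. Directly below UBB and RAP2A, 2 intervals were tied at a −log10 q of 51.4. One was inside AKT1S1, an inhibitory subunit of mTORC1, and the other inside PIK3R3, a regulatory subunit of PI3 kinase, and its readthrough gene P3R3URF-PIK3R3. Near the interval of PSME1 and PSME2, the neighbours in rank with a gene within 10 kb were at GATAD2A, a NuRD complex gene, above (−log10 q 5.08) and at PPP2R5D, a PP2A subunit gene, below (4.65). Those intervals had fold enrichments of 3.58 and 3.60, against 5.61.

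The rest of the pathway was then examined in lists of 89 other genes of ubiquitin supply, VCP function and the proteasome. These lists are not complete, so their counts describe only the genes in them. A Nutlin-3a interval was found at 1 of the 89, UBXN7, or 1.12%, where 1.33% of all protein-coding genes had one. A DMSO interval was found at 0 of the 89, where 0.319% of all genes had one. These lists were written with results for the 4 genes known.

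RPS27A had no interval within 10 kb in either list, and its nearest Nutlin-3a interval was 776 kb away. Of 25 VCP cofactor genes, 1 had an interval. This was UBXN7, whose product links VCP to cullin ubiquitin ligases. Its interval, chr3:196432584-196432743, was weak, with a fold enrichment of 3.24 and rank 263 of 304, and its midpoint lay 236.5 bp upstream of the gene's start. NPLOC4 and UFD1, the main partners of VCP in extracting substrates, were among the 24 without one. Among the 4 activator genes, PSME3 and PSME4 had no interval within 10 kb, and their nearest ones were 5.70 Mb and 485 kb away. The count was also 0 for the 3 immunoproteasome subunits, the 14 subunits of the 20S core, the 19 of the 19S regulatory particle and the 10 assembly and inhibitor genes. It was 0 for the 8 ubiquitin-activating enzyme genes and the 7 shuttle factor genes that carry marked proteins to the proteasome. At the shares over all genes given above, lists of this size would hold few or no genes with an interval, so nothing is read from these counts of 0.

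**Figure D4:**
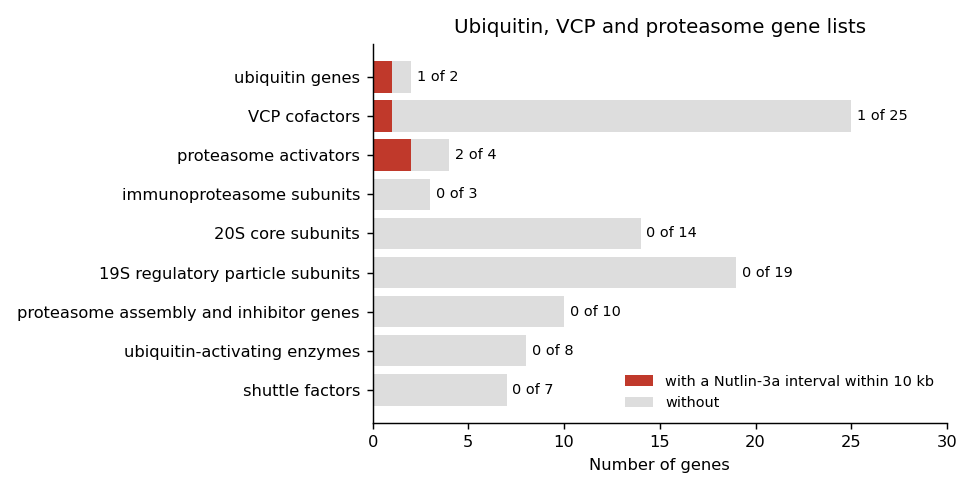
Number of genes per list (horizontal axis) with a Nutlin-3a interval inside or within 10 kb (red) and without (grey); UBB is counted among the ubiquitin genes, and PSME1 and PSME2 among the activators. Only 3 of the 9 lists have a red bar, with 1 of 2, 1 of 25 and 2 of 4 genes.

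Sequence elements of the promoter windows were compared last. Each window runs from 250 bases before to 50 after a start in the RefSeq table, and 5 windows of the 4 genes were read, with 2 for UBB. The motifs were searched on both strands: GTTGCCA and GTTGCTA as longer X-box arms, the core GTTGC, which both contain and which was added after the sequences were seen, and CCAAT. A longer X-box was searched in 2 forms, GTTGCCA directly followed by TGGNAAC, and GTTGC followed after 3 bases by GNNAAC. A match is a description of these letters and not evidence of a site.

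The VCP window held 5 CCAAT boxes and 2 X-box cores. At least 5 CCAAT boxes occurred in 0.359% of the 35116 windows of the table, and at least 1 in 34.6%. The cutoff of 5 was taken from VCP itself. Its share among windows that overlap a Nutlin-3a interval is not given here, so nothing is read from it. The X-box core occurred in 33.6%. The DMSO interval of VCP, which lies inside this window, held 2 of the CCAAT boxes and 1 of the cores. The 50 bases of the interval at EMC9 held 1 core and 1 CCAAT box. In the UBB window that starts at 16381040, the 2 cores stood close together on opposite strands inside the interval, and a CCAAT box lay outside it. That window covers 78 of the 514 bases of the UBB interval, so most of the interval was not read.

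The longer arms, present in 6.75% of all windows, were found in 1 of the 4 genes, and that match was not under an interval. No interval of either list overlapped the PSME2 window. That window held GTTGCCA on the strand opposite to the gene, read as TGGCAAC along the gene. The stretch around this match, chr14:24146732-24146778 on the minus strand, is shown with the match in capitals, which starts 148 bases before the start of PSME2.
PSME2: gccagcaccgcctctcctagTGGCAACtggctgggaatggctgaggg
The PSME1 window held none of the motifs. Neither form of the longer X-box was found in a window of the 4 genes.

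**Figure D5:**
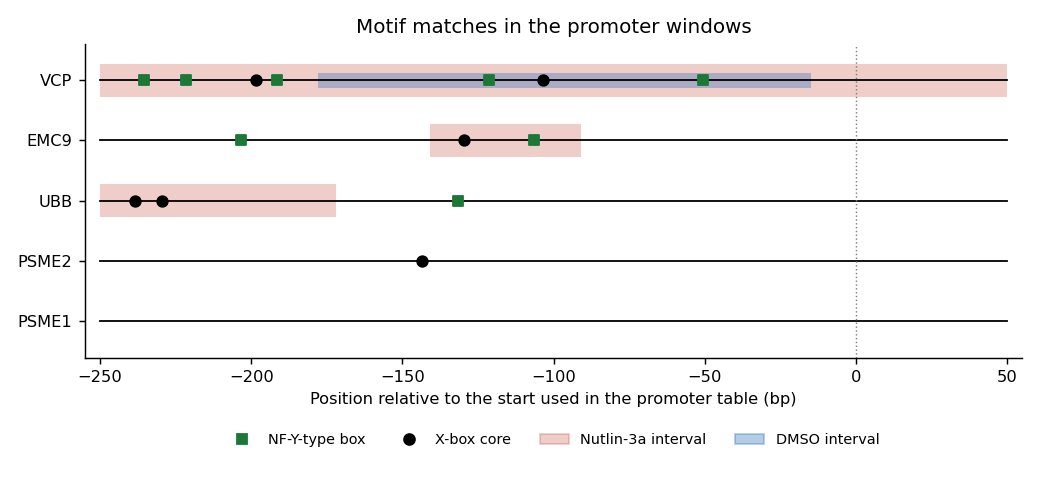
Matches of the X-box core (black circles) and of the CCAAT box, drawn as the NF-Y-type box (green squares), in promoter windows, by position in bp from the start used in the table; red shading marks the Nutlin-3a interval and blue the DMSO interval. VCP has 5 squares and 2 circles, EMC9 has 1 of each inside its interval, and the PSME1 and PSME2 windows lie outside any interval.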

How the data were processed

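RFX7 ChIP-seq of U2OS cells was represented by 2 deposited peak lists, 1 per treatment, whose rows are named as merged peaks. Per the submitters' processing notes, the build was hg38 and the tools included MACS2 2.2.7.1, bedtools 2.29.2, SAMtools 1.10 and Trimmomatic 0.39. The aligner, the filters and the way replicates were merged are not given in the sources used here. The authors deposited a fold enrichment (a ratio) and a −log10 q per interval. The score deposited by the authors is 10 times the −log10 q cut to a whole number in all 517 rows, and neither it nor the −log10 p was used. The input samples and single replicates were not analysed here, and depth is unknown.

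Midpoints stood in for summits. Genes came from a RefSeq table of GRCh38.p14 (20037 protein-coding genes, 93 of 93 listed symbols matched) and sequences from its promoter windows. Intervals, ranks and motif matches were computed with Python 3.11.15 and pandas 2.3.3, after being tested on planted intervals and motifs. Overlap meant at least 1 bp. The members and lists were chosen with earlier results of these data known. Named genes were the 4 members, listed genes with an interval, genes sharing a member's interval and the nearest genes of intervals next in rank. A few genes that these rules cover are not reported here. Other distances, minimum −log10 q, overlap rules, rankings and motifs were tried as alternatives.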

Additional observations from a re-analysis of the deposited data

How the results depend on the processing

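For 11 results, 36 alternative values were computed. Of these, 18 equalled the reported value or stayed within 1.5 times of it, and 18 moved further or changed a rank. The 4 genes with a Nutlin-3a interval became 2 within 1 kb, 2 at a −log10 q of at least 10 and 2 when the lower-ranked part of the list, under its median, was left out, each time UBB and VCP. The DMSO interval of VCP, at a −log10 q of 9.57, fell under a minimum of 10, which left 0 genes with a DMSO interval and 0 intervals in both lists. Requiring 50% of both intervals to overlap also gave 0. Of the other pathway genes, those with a Nutlin-3a interval numbered 5 within 50 kb, and 0 at either minimum −log10 q. With a DMSO interval there was 1 within 50 kb. The shares over all protein-coding genes at these other settings are not given here, so nothing is read from the changed counts. By fold enrichment, the Nutlin-3a ranks were 8 for VCP, 3 for UBB, and 112 for PSME1 and for PSME2, and the DMSO rank of VCP was 6. Genes of the 4 with a motif in a window numbered 1 for the longer X-box arms, 0 for each of the 2 forms of the full X-box, and 3 for the core, the last chosen after seeing the data.

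No paired analysis was possible because the replicates of a treatment were merged into 1 list, and leaving out a replicate was not possible for the same reason. Unknown depth limits what widths and scores can say between treatments. Bases outside the promoter windows were not read.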

Other observations

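The longer X-box arm GTTGCTA was held by no window of UBB, VCP, PSME1, PSME2 or EMC9. It was more frequent in promoter windows overlapping a Nutlin-3a interval than in all windows. Of 146 promoter windows that overlapped such an interval, 19.9% held it, against 2.85% of all 35116 windows. The arm GTTGCCA was in 6.85% of the 146, against 4.08% of all. The core GTTGC was in 63.0% against 33.6%, and the CCAAT box, which VCP holds 5 times in its window, in 73.3% against 34.6%. Windows of VCP, UBB and EMC9 held the core, but so did that of PSME2, which no interval overlaps. The UBB window of the start at 16381341 did not hold it. The full X-box was rare in all windows, so its counts in the 146 are too small to compare the shares. Its form with GTTGCCA directly followed by TGGNAAC was in 0 of the 146 and 0.103% of all windows. The form with 3 free bases was in 1 of the 146, or 0.685%, and in 0.681% of all windows. A match was counted anywhere in a window, also outside the interval. Several windows can overlap the same interval, so these shares are descriptions and were not tested.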
